A study of Mus musculus with 35 samples.

Results

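The genes of the endogenous opioid system described here are the 3 peptide precursors Penk, Pdyn and Pnoc and the 4 receptors Oprk1, Oprm1, Oprd1 and Oprl1, taken by their gene symbols. These 7 genes were found, each under 1 Ensembl identifier, among the 52636 genes counted in mouse amygdala RNA. The 35 libraries analysed here came from 19 female mice, 16 from an anterior and 19 from a posterior portion of the amygdala, with both portions represented for 16 mice. The mice belonged to the inbred strain C57BL/6J (8 mice) or to the F1 hybrid strain B6D2F1N (11 mice) and lived in standard housing or in enriched housing, in which they had a playground for 1 hour a day. In the anterior amygdala, the groups held 4 standard and 2 enriched C57BL/6J libraries and 5 standard and 5 enriched B6D2F1N libraries. In the posterior amygdala, they held 4 and 4 C57BL/6J and 5 and 6 B6D2F1N libraries, respectively. All mice shared a long history, with food restriction, same-strain group housing, touchscreen training from postnatal day 70 and a judgment bias test of 5 days, so that no group represented untrained animals. Training lasted 37 to 90 days depending on how fast a mouse learned, so that age at sampling varied between mice, and no comparison was adjusted for it. Enriched housing began at postnatal day 77, and the standard mice received a mock treatment.

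Opioid peptides are cut from large precursor proteins at pairs of basic amino acids and act on a small family of G protein-coupled receptors that inhibit neuronal firing and transmitter release. Enkephalins from Penk bind mainly the delta (Oprd1) and mu (Oprm1) receptors, dynorphins from Pdyn bind the kappa receptor (Oprk1), and nociceptin from Pnoc binds its own receptor, Oprl1. In the amygdala, enkephalin, dynorphin and their receptors are known for their part in fear, stress and reward.

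The libraries were made from laser-captured cells of stained basolateral amygdala sections, with 16938534 to 27352623 reads counted on genes per library. Values are CPM, the counts of a gene relative to the total counts of its library, which was scaled by edgeR's TMM factors, and a log2 fold change (LFC) between portions is positive where the posterior level was higher. Anterior and posterior are used here as in the sample labels, whereas the methods of the study give their positions along the brain in the reverse anatomical order, and exchanged labels would reverse the sign of every change between portions. The B6D2F1N mouse 1 in standard housing, labelled female, had 0 counts of Xist in both of its libraries. In these, Ddx3y, Eif2s3y, Kdm5d and Uty, all on the Y chromosome, were also at 0. The portion change and the posterior strain difference of Oprk1 are given with and without this mouse. Other results that rest on B6D2F1N mice include it unless stated otherwise. Markers of excitatory neurons, which form most of the basolateral amygdala, summed to 1124 to 5676 CPM and were found in every library. In bulk RNA, fewer cells of a type and less RNA per cell cannot be told apart.

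On GRCm38, Penk lies at chr4:4133531-4138819 on the minus strand, Pdyn at chr2:129686565-129699844 on the minus strand and Pnoc at chr14:65400673-65425472 on the minus strand. Their coding exons hold the enkephalin-type peptide units that define the precursors. A search of the annotated coding sequences for codons of Tyr-Gly-Gly-Phe followed by Met or Leu found 7 units in Penk, 6 of them ending in Met and 1 in Leu, and 3 units in Pdyn, all ending in Leu. Pnoc held 1 related unit, which begins with Phe in place of Tyr and opens nociceptin. Each of these units followed a pair of codons for basic amino acids, the cleavage site of the prohormone convertases Pcsk1 and Pcsk2 described below. The units below are shown with the basic pair in lower case and the 5 codons of the peptide in capitals, read from the reference genome on the coding strand.
Penk unit 1, chr4:4134334-4134354: aagaagTACGGAGGCTTCATG
Penk unit 6, chr4:4133941-4133961: aagaggTATGGGGGCTTCCTG
Pdyn unit 1, chr2:129688238-129688258: aaacgcTATGGCGGCTTTTTG
Pdyn unit 2, chr2:129688130-129688150: aaacgcTATGGGGGCTTCCTG
Pnoc unit 1, chr14:65404878-65404898: aaaaggTTTGGGGGCTTCACC
The Leu unit of Penk and the second unit of Pdyn held the same 15 bases, TATGGGGGCTTCCTG.

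The receptors lie at chr1:5588466-5606131 (Oprk1, plus strand), chr10:6758506-7038198 (Oprm1, plus strand), chr4:132110726-132144486 (Oprd1, minus strand) and chr2:181715016-181720985 (Oprl1, plus strand). Their coding sequences were 63.6 to 70.2% identical between pairs, and the windows below, all 45 bases long and taken from coding exons, show this likeness around the Asp-Arg-Tyr motif that contacts the G protein, whose codons are in capitals.
Oprk1, chr1:5598777-5598821: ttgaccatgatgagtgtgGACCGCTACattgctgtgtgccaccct
Oprm1, chr10:6829072-6829116: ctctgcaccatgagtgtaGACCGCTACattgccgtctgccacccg
Oprd1, chr4:132117237-132117281: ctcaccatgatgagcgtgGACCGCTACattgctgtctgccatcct
Oprl1, chr2:181718564-181718608: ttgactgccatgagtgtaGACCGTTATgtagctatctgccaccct
Of these 45 bases, Oprd1 shared 40 with Oprk1, Oprm1 shared 35 and Oprl1 shared 34. The longest stretch without a mismatch between the transcripts of any pair of members was 25 bases, shorter than the 72-base reads. Penk shares 233 bp of exon with A830012C17Rik on the opposite strand and Oprm1 shares 96 bp with Ipcef1. As the strand setting of the counting is not given in the sources used here, reads of these stretches cannot be assigned. A830012C17Rik had 288 counts over all libraries and Ipcef1 had 19154, and the low values of Oprm1 are uncertain for this reason.

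Penk was the most abundant member when levels were divided by the length of all annotated exons of a gene, with 470 ± 415 CPM per kb (SD, n = 35 libraries), followed by Oprl1 with 33.8 ± 8.95. Pnoc (12.5 ± 4.59), Pdyn (12.1 ± 10.5) and Oprk1 (8.09 ± 8.75 CPM per kb) came next over all libraries. Oprk1 had 15.3 ± 8.16 in the 16 anterior and 1.99 ± 1.81 CPM per kb in the 19 posterior libraries. Its spread over all libraries holds this difference. Pnoc had 13.6 ± 4.60 and 11.6 ± 4.50, and Pdyn 11.2 ± 12.1 and 12.9 ± 9.10, respectively. The place of Oprk1 also depends on the length used, 9151 bp of exons against 1376 bp in its coding transcript Oprk1-201. The delta receptor Oprd1 (0.566 ± 0.544) and the mu receptor Oprm1 (0.190 ± 0.171 CPM per kb) were close to the limit of detection. Behind Oprm1 stood 1 to 113 reads per library and behind Oprd1 0 to 202 reads, against 1766 to 57547 reads for Penk. The enriched B6D2F1N mouse 5 had 0 posterior counts of Oprd1, which allows a level of up to 0.154 CPM from 3 counts. The members also differed in how steady they were across the 35 libraries. The standard deviation of the CPM was 26.5% of the mean for Oprl1 and 36.6% for Pnoc, but 86.5% for Pdyn, 88.3% for Penk and 108% for Oprk1.

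**Figure D1:**
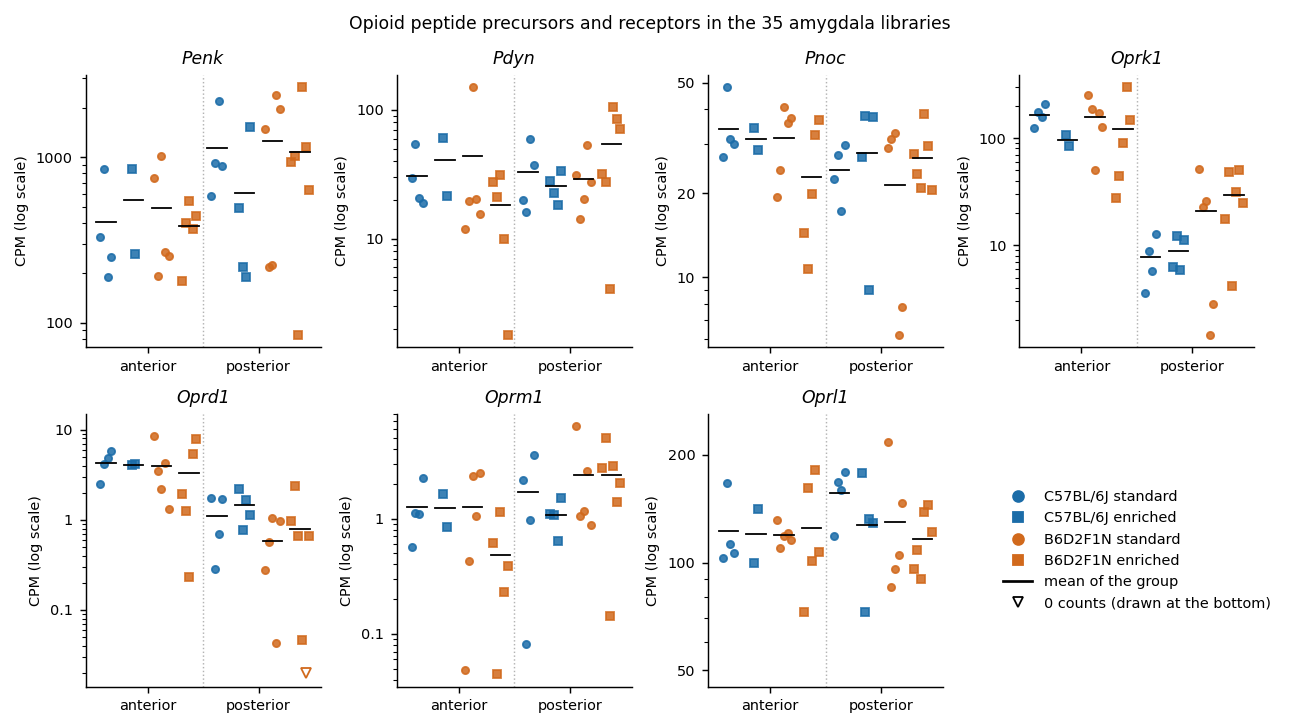
CPM of the 7 members in every library on a log scale, anterior libraries left and posterior libraries right of the dotted line. Points are mice (circles standard, squares enriched housing), bars are group means, and the open triangle is the Oprd1 library with 0 counts. Oprk1 was between 27.5 and 299 CPM in all anterior libraries and between 1.45 and 51.5 CPM in all posterior ones.

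Is any opioid gene expressed at different levels in the anterior and posterior amygdala? The kappa receptor Oprk1 was, in both strains. In the C57BL/6J mice with both portions, Oprk1 had 123, 174, 158 and 207 CPM in the anterior libraries of standard mice 1 to 4, and 107 and 84.9 CPM in those of enriched mice 1 and 3. The posterior libraries of the same mice, in the same order, held 3.55, 8.88, 5.81, 12.8, 6.22 and 5.88 CPM. Every anterior value lay above every posterior value, and the level was lower in the posterior library of 6 of 6 mice. The share of all genes with such a separation is not given here. The LFC was -4.35 (SE 0.207, adjusted p = 2.13e-09, edgeR's quasi-likelihood test with the mouse as a block). Of the 7 members, Oprk1 alone passed the threshold of an adjusted p of 0.05 in C57BL/6J, against 3.64% of all genes tested.

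In B6D2F1N, Oprk1 also fell toward the posterior portion, but the mice varied far more. Standard mice 1 to 5 had anterior levels of 250, 187, 49.9, 170 and 127 CPM, and enriched mice 1, 2, 3, 4 and 6 had 27.5, 44.4, 89.9, 299 and 146 CPM. Their posterior levels, in the same order, were 51.5, 22.6, 26.0, 1.45 and 2.85 CPM in standard and 17.4, 48.3, 4.14, 31.1 and 24.8 CPM in enriched mice. The level was lower in the posterior library of 9 of 10 mice and nearly equal in enriched mouse 2, and the portions overlapped. The LFC was -2.83 (SE 0.549, adjusted p = 0.00500, edgeR), and again 1 member, Oprk1, was called, with 4.00% of all genes called. Leaving out each mouse in turn kept the call, with LFCs between -3.14 and -2.45, and without mouse 1 in standard housing, the one lacking Xist, it was -2.90 (adjusted p = 0.0125, edgeR). With robust empirical Bayes in edgeR, however, the adjusted p was 0.0653 and no member was called (background 3.97%). On the log2 scale, the difference between the libraries of a mouse had an SD of 0.481 over the 6 C57BL/6J mice and of 2.17 over the 10 B6D2F1N mice.

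**Figure D2:**
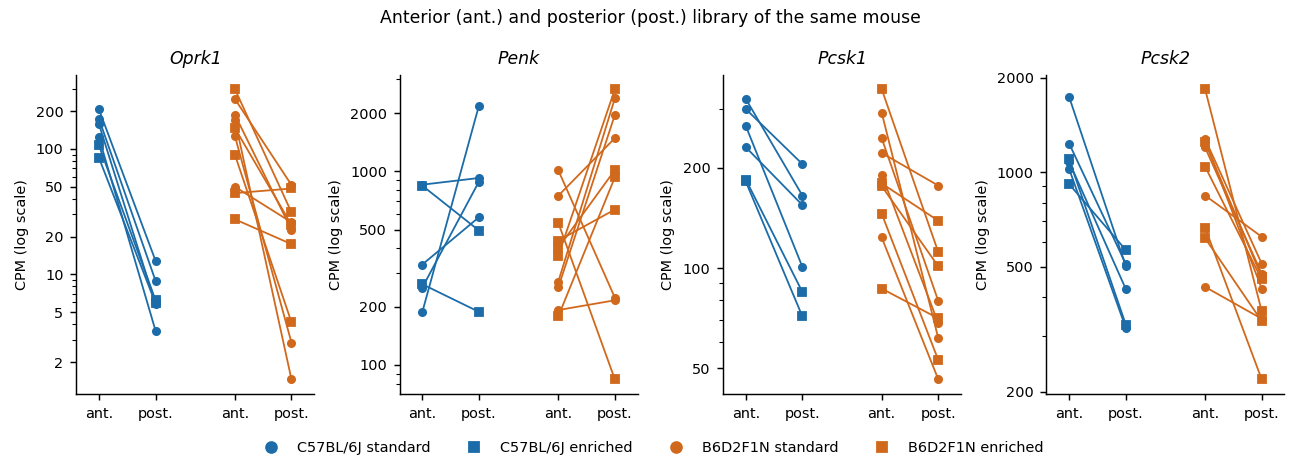
CPM on a log scale in the anterior and posterior library of each mouse, joined by a line, for Oprk1, Penk and the convertases Pcsk1 and Pcsk2. Blue lines are the 6 C57BL/6J and orange lines the 10 B6D2F1N mice, with circles for standard and squares for enriched housing. Lines of Oprk1, Pcsk1 and Pcsk2 point down in nearly all mice, whereas those of Penk cross.

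Oprk1 and Oprl1 made up nearly all receptor RNA, and their proportion differed between the portions. Per kb of annotated exons, Oprk1 was 31.5 ± 7.78% of the 4 receptors in the anterior and 1.79 ± 0.595% in the posterior libraries of C57BL/6J (n = 6), and 28.7 ± 12.2% and 6.92 ± 4.60% in B6D2F1N (n = 10). Oprl1, the nociceptin receptor, took most of the rest. These shares depend on the lengths used, 9151 bp of exons for Oprk1 and 3753 bp for Oprl1. Their coding transcripts, Oprk1-201 and Oprl1-201, hold 1376 and 2999 bp. In CPM, anterior Oprk1 had means of 142 ± 45.3 in C57BL/6J and 139 ± 90.2 in B6D2F1N, above the anterior Oprl1 means given next. By itself, Oprl1 had 122 ± 26.8 CPM in anterior and 156 ± 24.8 CPM in posterior libraries of the 6 C57BL/6J mice (LFC 0.37, SE 0.161, adjusted p = 0.311, edgeR). In B6D2F1N it was 122 ± 30.6 and 120 ± 39.7 CPM (n = 10, LFC -0.03, SE 0.137, adjusted p = 0.947, edgeR).

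Oprd1, the delta receptor, had lower posterior values in 6 of 6 C57BL/6J mice, from 2.50 to 5.82 CPM in the anterior to 0.284 to 2.22 CPM in the posterior libraries. The LFC of -1.79 (SE 0.588) did not pass the threshold in edgeR (adjusted p = 0.123), but did in DESeq2 (adjusted p = 0.0249), by which 2 members, Oprk1 and Oprd1, and 5.96% of all genes were called. In B6D2F1N, Oprd1 was lower in the posterior library of 8 of 10 mice (LFC -2.21, SE 0.890, adjusted p = 0.216, edgeR), with levels of 0.229 to 8.45 CPM and 0.0427 to 2.39 CPM. Without the mouse as a replicate block, Oprk1 and Oprd1 were both called in B6D2F1N (background 3.83%), Oprd1 with an adjusted p of 0.0469 in edgeR, whereas DESeq2 called Oprk1 only (background 7.18%). The mu receptor Oprm1 had 0.0811 to 3.53 CPM over both portions in the paired C57BL/6J mice (LFC -0.24, SE 0.817, adjusted p = 0.959, edgeR). In B6D2F1N it had 0.876 ± 0.891 CPM in anterior and 2.48 ± 1.93 CPM in posterior libraries (n = 10), higher in the posterior one in 7 of 10 mice (LFC 1.69, SE 0.973, adjusted p = 0.437, edgeR). The mouse lacking Xist had its highest posterior value, 6.32 CPM, and on leaving out single mice the LFC lay between 1.24 and 2.18.

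None of the 3 precursors passed the threshold between the portions. Penk had 187 to 854 CPM in anterior and 188 to 2189 CPM in posterior libraries of the paired C57BL/6J mice, with higher posterior values in all 4 standard and lower ones in both enriched mice (LFC 0.77, SE 0.403, adjusted p = 0.445, edgeR). In B6D2F1N, Penk had 178 to 1014 CPM and 84.1 to 2663 CPM, respectively, and was higher in the posterior library of 8 of 10 mice (LFC 1.11, SE 0.520, adjusted p = 0.311, edgeR). The differences between the libraries of single mice reached from -2.69 to 3.54 on the log2 scale, wider than the difference between the means of the portions.

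Pdyn, the dynorphin precursor and ligand source of Oprk1, showed no common direction. It was lower in the posterior library of 4 of 6 C57BL/6J mice (34.3 ± 18.6 against 29.9 ± 16.4 CPM, LFC -0.20, SE 0.339, adjusted p = 0.893, edgeR) and higher in 7 of 10 B6D2F1N mice (31.0 ± 43.0 against 38.6 ± 30.2 CPM, LFC 0.62, SE 0.612, adjusted p = 0.684, edgeR). Pnoc was lower in the posterior library of 6 of 6 C57BL/6J mice, from 33.2 ± 7.74 to 22.2 ± 7.86 CPM (LFC -0.65, SE 0.221, adjusted p = 0.140, edgeR), with overlapping portions. In B6D2F1N, it was lower in 4 of 10 mice (27.1 ± 10.7 against 23.9 ± 10.5 CPM, LFC -0.20, SE 0.324, adjusted p = 0.828, edgeR).

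**Figure D3:**
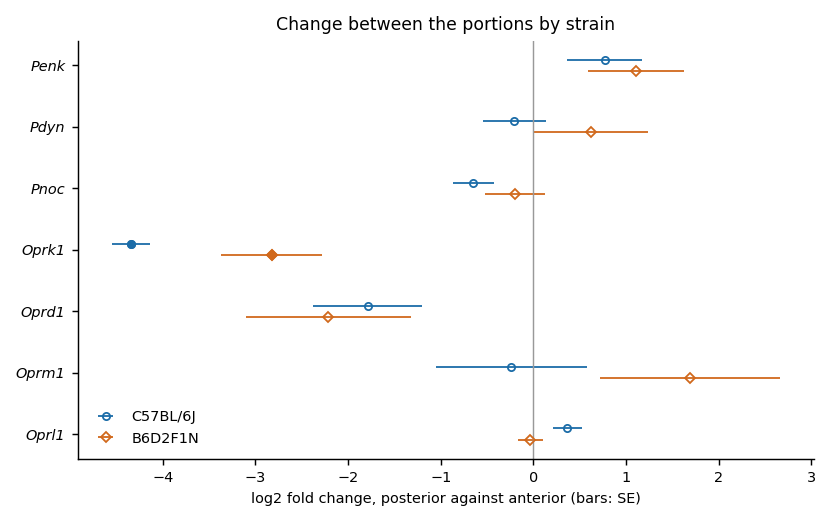
Fitted LFC between the portions for each member (posterior against anterior, edgeR), with bars of 1 SE, in 6 C57BL/6J and 10 B6D2F1N mice. Filled symbols passed an adjusted p of 0.05, and only those of Oprk1, at -4.35 and -2.83, are filled.

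Whether these changes differed between strains or housing conditions was tested by interaction terms over all 16 mice with both portions. No member passed the threshold for the strain term, for which 0% of all genes were called, nor for the housing term, also with 0% called. The LFC of Oprk1 between portions was 1.32 higher, that is less negative, in B6D2F1N (SE 0.642, unadjusted p = 0.0482, adjusted p = 1, edgeR). At an unadjusted p under 0.05, edgeR had 819 genes for strain and 888 for housing, and DESeq2 called 0 and 1 genes. Oprk1 was the 1 member with an unadjusted p under 0.05 for strain, and no member had one for housing. DESeq2 called no member for either term.

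Summed markers of several cell types, from within and outside the basolateral amygdala, differed between the portions. The summed markers of choroid plexus and ependyma (Ttr, Kl, Folr1, Foxj1, Tmem212 and Ccdc153) were higher in the posterior library of all 6 C57BL/6J mice and of all 10 B6D2F1N mice, and 5 of the 6 markers were called higher in each strain. They reached 3.75 to 22.4 CPM in anterior and 130 to 1489 CPM in posterior libraries of C57BL/6J, and 4.67 to 941 CPM and 362 to 14140 CPM in those of B6D2F1N. In the anterior libraries, Folr1 and Tmem212 were at 0 counts in 10 of 16 each. The one anterior library with 941 CPM belonged to the enriched B6D2F1N mouse 1, and the next highest, with 52.1 CPM, to enriched mouse 2, the mice with the lowest anterior Oprk1. Without mouse 1 or without mouse 2, the LFC of Oprk1 in B6D2F1N was -3.07 and -3.14. Markers of meningeal fibroblasts summed to 40.1 to 77.0 CPM in anterior and 868 to 1758 CPM in posterior libraries of the paired C57BL/6J mice, and to 31.2 to 80.0 and 47.0 to 1677 CPM in B6D2F1N. Dcn carried most of this difference, with a median of 22.1 CPM in anterior and 689 CPM in posterior libraries, whereas Col1a2 had medians of 7.45 and 7.56 CPM and Igf2 of 15.8 and 19.1 CPM. Of the 5 fibroblast markers, 1 was called higher in each strain. Markers of excitatory neurons summed lower in the posterior library of 5 C57BL/6J mice (n = 6) and 8 B6D2F1N mice (n = 10), with 3 and 4 of the 6 markers called lower and 1 called higher in each strain. Camk2a made up most of this sum, and Slc17a6 went the other way, with a median of 71.9 CPM in anterior and 199.5 CPM in posterior libraries. Markers of interneurons summed lower in 6 of 6 and 8 of 10 mice, with 5 and 3 of the 8 markers called lower and 1 called higher in each strain. Here Calb2 went the other way, with medians of 24.6 and 99.9 CPM. The part of these cells in the results for the opioid genes was not tested.

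Penk, which marks many neurons of the striatum and central amygdala, and Oprl1 varied between libraries along with markers of cell types that border the basolateral nucleus. Of 28 relations computed (7 members, 2 marker lists and 2 portions), 3 had Pearson's r with an adjusted permutation p of at most 0.05 (100000 permutations, two-sided). Oprl1 rose with the summed claustrum and endopiriform markers (Nr4a2, Gnb4, Ntng2, Lxn, Synpr and Gng2, mostly Synpr) over the 16 anterior libraries, with r = 0.782 (permutation p = 0.000550, adjusted 0.0146) and Spearman's rho = 0.768 (permutation p = 0.000740, adjusted 0.0207). Without the 2 libraries farthest from the median, r was 0.650, and within strains it was 0.975 in C57BL/6J and 0.740 in B6D2F1N. Penk rose with the 11 striatal and central amygdala markers over the anterior libraries (r = 0.711, permutation p = 0.00156, adjusted 0.0146), although rho was 0.615 (permutation p = 0.0128, adjusted 0.0715) and r was 0.474 without the 2 farthest libraries, and the relation rests in part on those libraries. Within strains, r was 0.571 in C57BL/6J and 0.820 in B6D2F1N. In the 19 posterior libraries, Penk rose with the claustrum and endopiriform markers (r = 0.674, permutation p = 0.00156, adjusted 0.0146). There, rho was 0.584 (permutation p = 0.00988, adjusted 0.0692), r was 0.639 without the 2 farthest libraries, and within strains r was 0.332 in C57BL/6J and 0.834 in B6D2F1N. For Oprk1, r with either list lay between -0.341 and 0.036 in the portions, and none of its adjusted p-values passed the threshold. With the striatal and central amygdala markers in posterior libraries, its r was -0.273, but 0.222 without the 2 farthest libraries. Within strains, that r was -0.026 in C57BL/6J and -0.621 in B6D2F1N, and the values within strains were not tested.

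**Figure D4:**
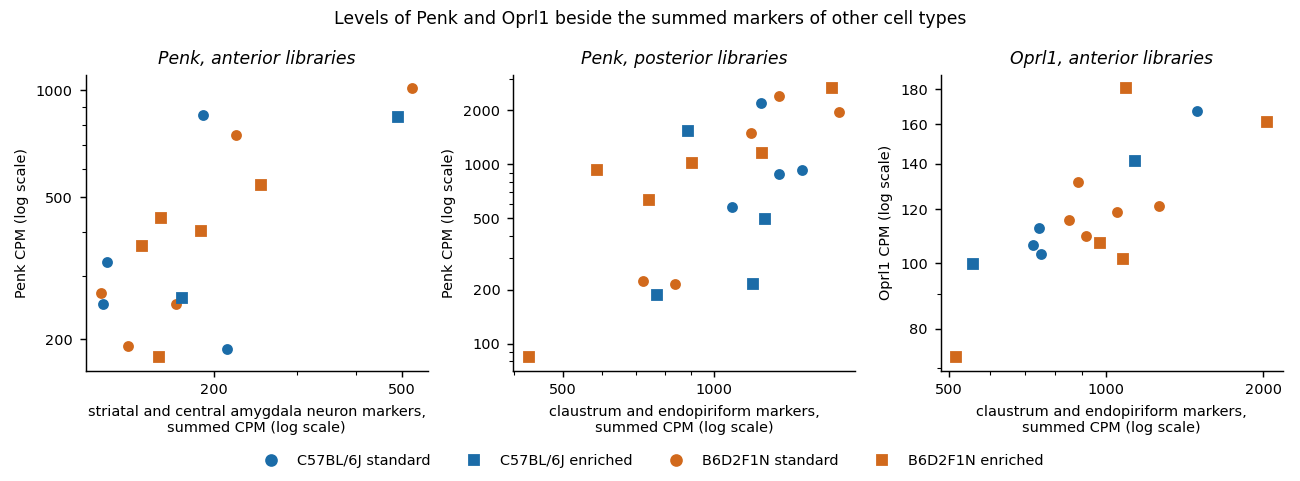
CPM of Penk or Oprl1 against the summed CPM of markers of striatal and central amygdala neurons or of claustrum and endopiriform cells, 1 point per library, both axes on a log scale (blue C57BL/6J, orange B6D2F1N, circles standard, squares enriched). Over the 16 anterior libraries r was 0.711 for Penk and 0.782 for Oprl1, and over the 19 posterior libraries it was 0.674 for Penk.

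The genes that make, degrade and transmit opioid peptides were examined as a list of 40 genes, all of which were tested. Between the portions, 3 of the 40 were lower and 0 higher in the posterior amygdala of C57BL/6J, and 4 were lower and 1 higher in B6D2F1N. Of all genes tested, 3.64% and 4.00% were called, respectively, in either direction. The median LFC of the list was -0.17 and -0.18, against 0.01 and 0.15 for all genes tested. The 2 convertases that cut the precursors at basic pairs fell in both strains, as did Adcy1, described below. Pcsk2 had 1180 ± 290 CPM in anterior and 441 ± 102 CPM in posterior libraries of the 6 C57BL/6J mice (LFC -1.42, SE 0.161, adjusted p = 3.43e-05, edgeR). In the 10 B6D2F1N mice, it had 1041 ± 413 and 421 ± 112 CPM (LFC -1.24, SE 0.169, adjusted p = 0.000282, edgeR). Pcsk1 fell from 247 ± 58.7 to 130 ± 52.4 CPM in C57BL/6J (LFC -0.99, SE 0.160, adjusted p = 0.00108, edgeR) and from 200 ± 77.8 to 90.7 ± 41.5 CPM in B6D2F1N (LFC -1.16, SE 0.186, adjusted p = 0.00122, edgeR). Both were lower in the posterior library of each of the 16 mice. Of the other processing genes, Ctsl, a protease that also cuts proenkephalin, fell in B6D2F1N (LFC -0.53, SE 0.128, adjusted p = 0.0227, edgeR), a call lost without standard mouse 2 or 4 or enriched mouse 4 or 6 (adjusted p between 0.0571 and 0.0701), while Cpe and Pcsk1n passed in neither strain.

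Among the 14 genes of G proteins and effectors, Adcy1, an adenylyl cyclase that opioid receptors inhibit through Gi, fell in both strains. It had 397 ± 81.3 CPM in anterior and 169 ± 110 CPM in posterior libraries of C57BL/6J (LFC -1.41, SE 0.251, adjusted p = 0.00240, edgeR) and 464 ± 160 and 186 ± 105 CPM in those of B6D2F1N (LFC -1.42, SE 0.272, adjusted p = 0.00467, edgeR). A related cyclase, Adcy8, rose in B6D2F1N, from 10.2 ± 6.22 to 20.0 ± 7.41 CPM and in 10 of 10 mice (LFC 1.12, SE 0.228, adjusted p = 0.00723, edgeR). In C57BL/6J it was higher in 4 of 6 mice and did not pass. None of the 7 peptidases that degrade enkephalins and none of the 11 genes of receptor desensitization passed in either strain, nor did Pomc, the beta-endorphin precursor, or the atypical receptor Ackr3.

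Strains were compared within housing and portion, and over both housing conditions with a term for housing. No member passed the threshold in edgeR in standard anterior (background 0.370%), standard posterior (0.373%), enriched anterior (0.0639%) or enriched posterior libraries (0.394%), nor over both housing conditions in the anterior (0.615%) or posterior amygdala (0.858%). The nearest was Oprk1 in the posterior amygdala. All 8 C57BL/6J libraries lay between 3.55 and 12.8 CPM, whereas the 11 B6D2F1N libraries reached from 1.45 to 51.5 CPM, with 8 above and 2 below the whole C57BL/6J range. Means were 8.29 ± 3.42 and 25.5 ± 18.6 CPM (LFC 1.60, SE 0.501, adjusted p = 0.178, edgeR), and the LFC was 1.30 (adjusted p = 0.311) without the mouse lacking Xist. In standard mice alone the LFC was 1.44 (SE 0.770, adjusted p = 0.548, edgeR), and 0.80 without that mouse. DESeq2 called 1 member, Oprk1, in this comparison (adjusted p = 0.0399, background 1.91%) and in enriched mice alone (adjusted p = 0.0361, background 1.33%), where edgeR gave an LFC of 1.74 (SE 0.514, adjusted p = 0.294). On leaving out single mice, edgeR called Oprk1 in enriched mice in 1 of 10 fits, with adjusted p-values between 0.0278 and 0.615. The call came without the enriched B6D2F1N mouse 3 (LFC 1.96), which had the lowest posterior level of its group with 4.14 CPM. The share of all genes called in that fit is not given here. In the anterior amygdala, the strains overlapped, at 142 ± 45.3 CPM in C57BL/6J (n = 6) and 139 ± 90.2 CPM in B6D2F1N (n = 10, LFC 0.09, SE 0.379, adjusted p = 1, edgeR).

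No other member was called by edgeR or DESeq2. Over both housing conditions, their LFCs lay between -0.54 (Oprm1) and 0.01 (Oprl1) in the anterior and between -0.89 (Oprd1) and 0.83 (Oprm1) in the posterior amygdala, with adjusted p-values of 0.700 or more in edgeR. On leaving out single mice, the posterior LFC of Oprm1 lay between 0.49 and 1.15, and in standard mice alone between -0.24 and 1.18. The pathway list held 1 gene that differed between strains, Scg5, the chaperone that guides Pcsk2 to its active form. Scg5 had 724 ± 58.1 CPM in C57BL/6J (n = 6) and 1317 ± 202 CPM in B6D2F1N (n = 10) in the anterior libraries (656 to 789 against 958 to 1784 CPM, LFC 0.89, SE 0.139, adjusted p = 0.000962, edgeR). In the posterior libraries, it had 622 ± 113 (n = 8) and 1054 ± 241 CPM (n = 11, LFC 0.78, SE 0.162, adjusted p = 0.0100, edgeR). Within housing conditions, it passed in standard anterior libraries (LFC 0.80, SE 0.161, adjusted p = 0.0439, edgeR), a call that was lost without any 1 of 8 of the 9 mice, the standard B6D2F1N mouse 3 being the exception (adjusted p between 0.0538 and 0.228).

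**Figure D5:**
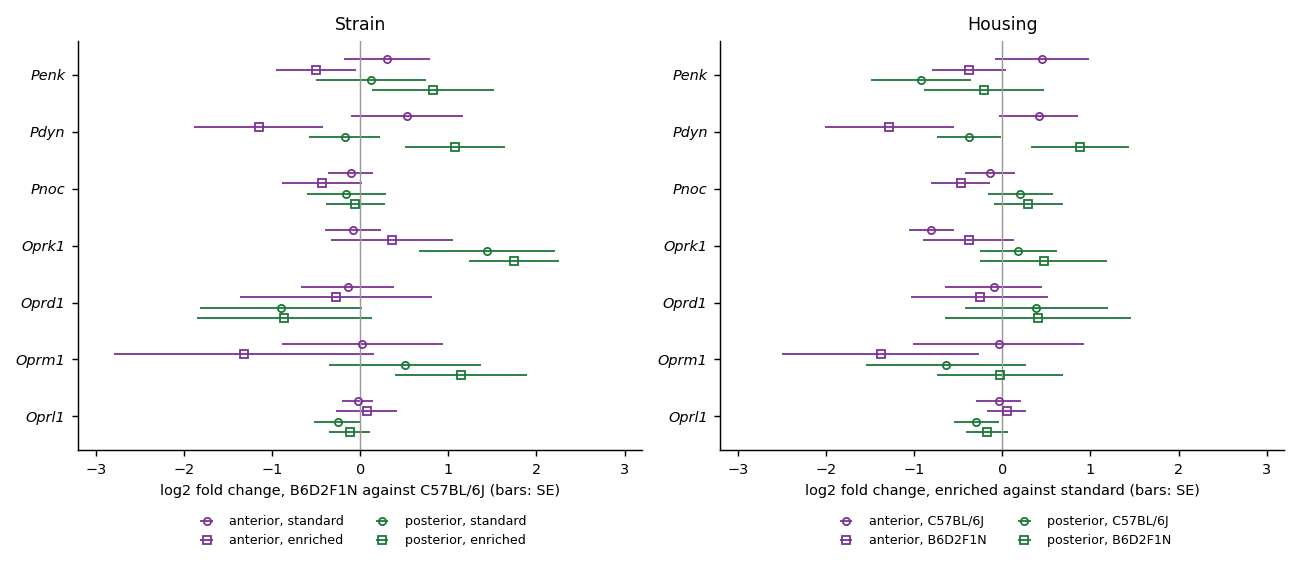
Fitted LFC of each member (edgeR, bars of 1 SE) for strain, left (B6D2F1N against C57BL/6J within portion and housing), and for housing, right (enriched against standard within portion and strain). All symbols are open, as no member passed an adjusted p of 0.05, and the posterior estimates of Oprk1 for strain, 1.44 and 1.74, lie farthest to the right.

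Enriched and standard housing were compared within strain and portion and over both strains. No member was called in anterior C57BL/6J (background 0%), posterior C57BL/6J (0.0163%), anterior B6D2F1N (0%) or posterior B6D2F1N libraries (0%), nor over both strains in the anterior (0%) or posterior amygdala (0%). Where edgeR called 0 genes, 1418 to 2371 genes had an unadjusted p under 0.05. DESeq2 called no member in these comparisons either, with 2 to 319 genes called. In 1 case the unadjusted p was under 0.05. Anterior Oprk1 of C57BL/6J was 107 and 84.9 CPM in the 2 enriched mice and 123 to 207 CPM in the 4 standard mice (LFC -0.81, SE 0.259, unadjusted p = 0.00855, adjusted p = 0.686, edgeR). In B6D2F1N, anterior Oprk1 was 121 ± 110 CPM in enriched and 157 ± 74.3 CPM in standard mice (n = 5 each, LFC -0.38, SE 0.518, adjusted p = 1, edgeR). Posterior Pdyn of B6D2F1N was 4.05 to 105 CPM in the 6 enriched and 14.1 to 53.4 CPM in the 5 standard mice (LFC 0.88, SE 0.553, adjusted p = 0.885, edgeR), and none of the 40 pathway genes passed.

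Mice at the extremes of the judgment bias test, labelled optimists and pessimists, were compared with terms for strain and housing. All 4 optimists lived in standard housing, while 3 of 4 pessimists with an anterior and 4 of 5 with a posterior library lived in enriched housing, so that the housing term rests on 1 standard pessimist, B6D2F1N mouse 1, without which the comparison could not be fitted. No member passed in the anterior (background 0.00414%) or posterior amygdala (0.00396%) with either edgeR or DESeq2. Oprk1 had 49.9 to 207 CPM in 4 optimists and 27.5 to 250 CPM in 4 pessimists in the anterior amygdala (LFC -1.16, SE 0.506, unadjusted p = 0.0430, adjusted p = 0.876, edgeR). It was the 1 member with an unadjusted p under 0.05, which 997 of all 24134 genes tested there had. The negative direction of Oprk1 rests on the terms for strain and housing, since the mean was 138 ± 67.4 CPM in optimists and 107 ± 101 CPM in pessimists and the LFC without those terms was 0.40 (SE 0.572, adjusted p = 0.999, edgeR). In the posterior amygdala, Oprk1 had 1.45 to 26.0 and 6.22 to 51.5 CPM (LFC -1.97, SE 1.11, adjusted p = 1, edgeR). There it was called in 1 of 6 alternative fits, the edgeR fit with no minimum count, for which the share of all genes called is not given here. None of the 40 pathway genes passed.

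Groups were ranked by mean level, and each gap between neighbours was set against the larger of their SDs. For Oprk1, the 4 anterior groups came first (165 ± 34.6, 157 ± 74.3, 121 ± 110 and 95.7 ± 15.3 CPM) and the 4 posterior groups last (29.3 ± 17.9, 20.9 ± 20.4, 8.82 ± 3.22 and 7.76 ± 4.02 CPM). Of the 7 gaps between neighbours, 1 exceeded the larger of both SDs, the gap of 66.4 CPM between the portions. Its anterior neighbour was the enriched C57BL/6J group of 2 libraries (95.7 ± 15.3 CPM), whereas the enriched B6D2F1N group had 121 ± 110 CPM. The gap therefore depends on which groups were neighbours and does not set every anterior group apart by its spread. For Oprm1, 1 of 7 gaps also exceeded the larger SD, and for the other members 0 of 7.

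The protein-coding genes whose log2 CPM followed each member most closely over the 35 libraries, among 11190 genes of at least 5 CPM on average, are given as a description, with Pearson's r and without a test, since libraries share portion, strain and mouse. Oprk1 was followed by Kcna6 (r = 0.891), Dpy19l1 (0.887) and Tmeff1 (0.887), and within the posterior libraries alone by 0.662, 0.528 and 0.709. Oprl1 varied most like Tmeff2 (0.873), Kcnd3 (0.825) and Tmem43 (0.823), with Tmeff2 at 0.862 in the anterior and 0.885 in the posterior libraries. For Penk, the genes were Plppr1 (0.814), Wfs1 (0.763) and Sv2c (0.746), and for Pdyn, Dlx5 (0.703), Rgs9 (0.702) and Zfp141 (0.651). For Pnoc, they were Uaca (0.742), Tmem189 (0.712) and Scg2 (0.683), for Oprd1, Dgkz (0.775), B4galt2 (0.754) and Nptx2 (0.747), and for Oprm1, Cenpv (0.643), Acot8 (0.636) and Suz12 (0.604). Among the members themselves, r within a portion was highest for Pdyn and Penk in the posterior libraries (0.764, n = 19).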

How the data were processed

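Per the submitters' processing notes, single reads of 72 bases passed through bcl2fastq, FastQC 0.11.7, Trimmomatic 0.38 (trimming), HISAT2 2.1.0 (alignment, GRCm38), SAMtools 1.8 and HTSeq 0.11.2 (reads per gene), and the authors deposited 1 table of raw read counts per library, neither normalized nor filtered. The annotation release and strand setting are not given in the sources used here. HTSeq's totals of unassigned reads (13.7 to 26.4% without a gene, 3.06 to 3.74% ambiguous and 6.23 to 10.9% not unique) were left out of library sizes, and 0 of 595 pairs of libraries held the same counts.

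Gene symbols, exons and sequences came from GENCODE M21 on GRCm38. A gene entered a comparison if its libraries summed to 10 counts or more, and was tested with edgeR 4.0.16 in R 4.3.3 (TMM, quasi-likelihood F test), with Benjamini-Hochberg adjustment over all genes tested and a threshold of 0.05. Alternatives were DESeq2 1.42.0, its size factors in edgeR, other filters on low counts, robust empirical Bayes, 1 fit for all groups of a portion, no replicate block, bias without its covariates, and leaving out single mice. The SE of an LFC is its size divided by the square root of F. For log2 CPM the prior count was 2, and for marker sums the pseudocount was 0.1. The limit given for 0 counts covers counting error only, whereas SEs and SDs also hold the spread between libraries. Reads carry no molecular identifiers. Portions were compared with the mouse as a block, since the mouse code in the labels and the study's methods pair the libraries. As a check, each library's deviation from its group mean was correlated, over 16022 genes, between both portions of a mouse (median r 0.048, range -0.105 to 0.222, 16 mice) and between different mice (median r -0.017). The fits were also run on simulated counts. Apart from the planted changes, these held no effects of mouse, strain or housing, so the run does not show how the fits handle such effects.

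The members, gene lists and marker lists were chosen with earlier results of these data known. Named genes were the members, the pathway genes past the threshold in a portion, strain or housing comparison, the 3 most similar genes per member, and the markers. Fits for portions use the 16 mice with both portions. The mice of a group are separate animals, which the labels give. Sequences of proteins were not used here.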

Additional observations from a re-analysis of the deposited data

Results flagged for a closer look

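Of 49 groups of at least 4 values tested for a library far from the others, 2 were found. Chance alone gives about 1 in 20, so that the 2 found are no more than chance would give. Pdyn was at 151 CPM in the anterior library of the standard B6D2F1N mouse 3, against 11.9 to 20.2 CPM in the other libraries of that group (n = 5). The same library had the highest summed striatal and central amygdala markers of all anterior libraries and the highest anterior Penk, 1014 CPM. Oprl1 was at 167 CPM in the anterior library of the standard C57BL/6J mouse 2, against 103 to 113 CPM in the others (n = 4).

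The change of Penk between the portions had opposite directions in the housing groups of C57BL/6J. The posterior library was higher in 4 of 4 standard mice, with a mean difference of 1.57 on the log2 scale, and lower in 2 of 2 enriched mice, with a mean difference of -0.62. The difference was not tested within this strain. Over both strains, the housing term for Penk was -0.89 (SE 0.722, adjusted p = 1, edgeR).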

How the results depend on the processing

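The number of members called moved in 7 of 305 alternatives and kept its value, within 1.5 times, in the other 298. The main fits called a member only between the portions within a strain. In most alternatives 0 calls therefore stayed 0, which says little about how stable a call is. DESeq2 called 2 members between portions in C57BL/6J, 1 between strains in enriched posterior libraries and 1 between strains over both housing conditions in the posterior amygdala, in place of 1, 0 and 0. Between the portions of B6D2F1N, robust empirical Bayes called 0 and the fit without the replicate block 2 members, in place of 1. Without the pairing, Ctsl (LFC -0.54, adjusted p = 0.0883, edgeR) and Adcy8 (LFC 1.01, with an adjusted p just above the threshold) were not called between the portions of B6D2F1N, and Oprk1 had an LFC of -4.27 in C57BL/6J and -2.59 in B6D2F1N. Leaving out single mice called 0 to 1 members between strains in enriched posterior libraries. With no minimum count, 1 member, Oprk1, was called between optimists and pessimists in the posterior amygdala (LFC -1.97, adjusted p = 0.0394, edgeR), in place of 0. How many of all genes were called in that fit is not given here, so the call cannot be set against a background. Members and pathway genes past the threshold kept their direction under every alternative run, but members that did not pass changed sign in places, among them Oprk1 between optimists and pessimists in the anterior amygdala (LFC 0.40 without terms for strain and housing), Oprm1 between the portions of C57BL/6J (LFC 0.11 without the replicate block) and Pdyn there (LFC -0.54 to 0.11 on leaving out single mice). The causes of these moves were not tested. Oprm1 and Oprd1 rest on few reads, and counting error was not separated from the spread between mice. The bias comparisons could not be fitted without the standard B6D2F1N mouse 1.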
